A study of Mus musculus with 4 samples.

Results

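TFE3 was found at 201 regions of the mouse genome both in unstressed fibroblasts and in fibroblasts under at least 1 of 2 stresses, out of 3415 regions with a TFE3 peak in any condition (5.89%). These regions were chosen from 3 lists of chromatin immunoprecipitation peaks. The peaks of all lists were pooled, peaks that overlapped by at least 1 bp were merged, and a region was kept when it held a control peak together with a starvation or a tunicamycin peak. Of the 201 regions, 169 were in all 3 lists and 32 were in control and starvation only. None was in control and tunicamycin only. Membership and class therefore rest on which peaks were called, and the folds and tag numbers given below for the same peaks are descriptions, with no test.

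The cells were mouse embryonic fibroblasts, a line labelled CRL-2977, fixed in 1% formaldehyde. The control group was kept in full medium with 10% serum, the starvation group spent 2 hours in Earle's balanced salt solution, and the tunicamycin group received 0.1 µg/ml tunicamycin for 16 hours. Each of these groups had 1 library made with an antibody against TFE3, and 1 further library made with rabbit IgG was the background of all 3 lists. With 1 library a group, every difference below is between libraries, and no replicate spread is known. In such bulk samples, TFE3 bound in more cells and more TFE3 bound per cell cannot be told apart. The 3 lists share the IgG library, so their values at a region are not independent of each other.

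TFE3 belongs to the MITF/TFE family of transcription factors, whose basic helix-loop-helix domain binds E-box sequences as a dimer. It is known for its part in the expression of lysosomal and autophagy genes. In fed cells the kinase mTORC1 at the lysosome phosphorylates TFE3, and the phosphorylated protein is held in the cytoplasm. Loss of nutrients lowers mTORC1 activity and lets TFE3 enter the nucleus. Tunicamycin blocks N-linked glycosylation, which burdens the endoplasmic reticulum with unfolded protein.

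The 169 regions of all 3 lists and the 32 regions of control and starvation only had similar enrichment in control and different enrichment in starvation. The authors' fold enrichment, the tags at the peak summit over the local IgG background, had a control median of 6.87 in the 169 regions (range 3.45 to 15.3) and 6.40 in the 32 (5.01 to 12.7). In the starvation list the medians were 12.2 (5.25 to 25.8) and 5.28 (3.99 to 9.37). In the tunicamycin list the 169 regions had a median of 14.1 (4.14 to 27.2), and the 32 had no peak. The 95% intervals of the starvation medians were 11.7 to 12.9 and 4.58 to 5.92. Those of the control medians were 6.41 to 7.27 and 5.71 to 7.92. These intervals come from binomial order statistics over regions and do not cover the spread between cultures. The sets were split by whether a tunicamycin peak was called, so setting their intervals side by side is no test. The 220 control-only regions, which had no stress peak, had a control median of 5.88 (5.59 to 6.05). In the starvation list the 388 starvation-only regions had a median of 5.32 (5.20 to 5.51), close to that of the 32. The 1122 regions of both stresses without control had a starvation median of 6.59 (6.44 to 6.63). Weak starvation peaks were thus not particular to the 32.

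**Figure D1:**
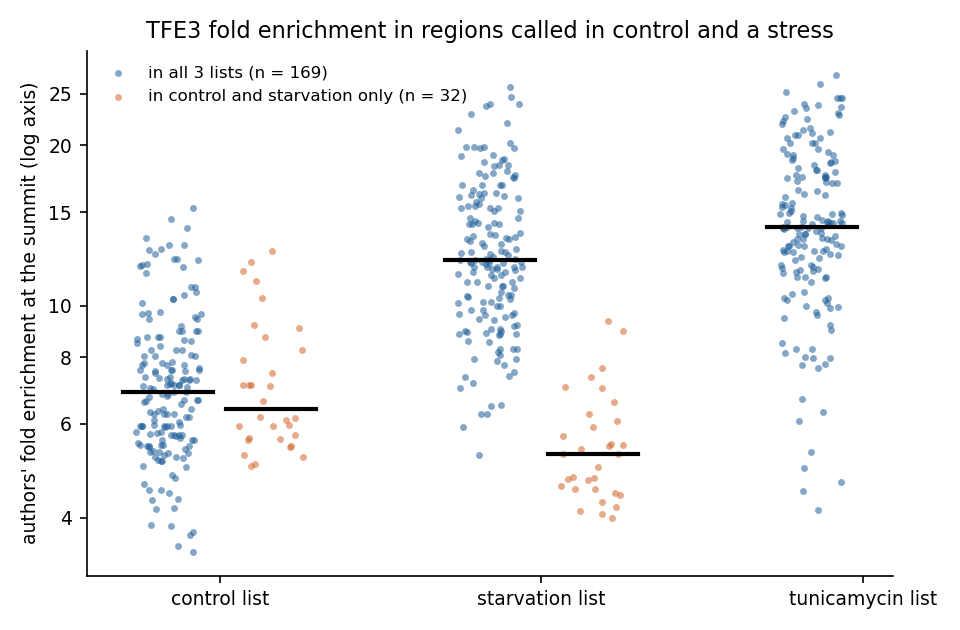
Authors' fold enrichment at the summit (log axis) for each region in the control, starvation and tunicamycin lists. Points are regions, with blue for the 169 in all 3 lists and orange for the 32 in control and starvation only, and black bars are medians. The medians are close in control (6.87 and 6.40) and apart in starvation (12.2 and 5.28), where the ranges of the sets still overlap.

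Nearly all of the 169 regions had a higher fold in each stress than in control, while the order of the stresses varied. The fold was higher in starvation than in control in 167 of 169, beside 87.6% of the 201 regions called in both lists. It was higher in tunicamycin than in control in 166 of 169 (98.2%) and lower in 3 (1.78%), and since these are all the regions called in both lists, these shares are also the background. In 125 of the 169 regions the fold was lowest in control, higher in starvation and highest in tunicamycin. Starvation had the highest fold in 42 regions, and control in 1. The median ratio of starvation to control fold was 1.77 (95% interval 1.70 to 1.84), that of tunicamycin to control 2.05 (1.96 to 2.12), and that of tunicamycin to starvation 1.15 (1.12 to 1.18). A ratio of at least 1.5 was reached by 130 regions in starvation over control (64.7% of the 201) and by 147 in tunicamycin over control (87.0% of the 169).

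In the 32 regions of control and starvation only, the fold was lower in starvation than in control in 23 and higher in 9. Over all 201 regions called in both lists it was lower in 12.4%. The median ratio of starvation to control fold was 0.798 (0.640 to 0.965). The direction turned under other choices of peaks, to 1.60 over 12 regions with lists of equal length and to 1.395 over 8 regions with peaks at the genome-wide background only, but only 2 of those 12 and 4 of those 8 belonged to the 32. Their ratios ran from 0.365 to 1.24, while those of the 169 ran from 0.801 to 3.36, so the 2 sets overlapped, with 14 of the 32 at or above the lowest ratio of the 169 and 9 of the 169 at or below the highest ratio of the 32. The difference was also seen among regions of like strength in control. These regions were still split by the tunicamycin call, so matching them on control fold is a description and no test. With a control fold of 8 or more, 51 regions of all 3 lists had a median starvation fold of 16.9, and 9 regions of control and starvation only had 5.28. With a control fold under 6 the medians were 10.3 in 61 regions and 5.39 in 13.

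**Figure D2:**
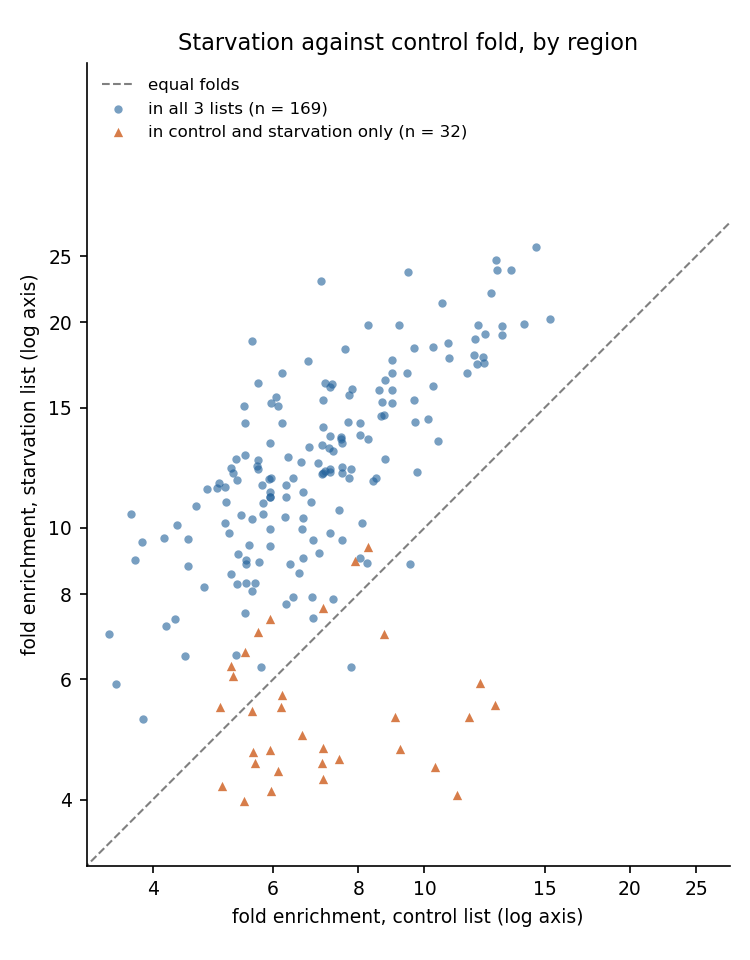
Fold enrichment in the starvation list against that in the control list, both on log axes, for the 169 regions in all 3 lists (blue circles) and the 32 in control and starvation only (orange triangles). The dashed line marks equal folds: 167 of 169 circles lie above it and 23 of 32 triangles below it.

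Combining the deposited fold with its −log10 p gave back the number of TFE3 tags at each summit, a count with a known error. In the 169 regions a control summit rested on a median of 35 tags (range 19 to 118), a starvation summit on 84 (32 to 223) and a tunicamycin summit on 135.5 (32 to 306, with 168 regions resolved). In the 32 regions the medians were 34 tags in control (21 to 67) and 34 in starvation (23 to 58). Relative to the IgG library, depth was 1.54-fold in control, 1.62-fold in starvation and 2.14-fold in tunicamycin, so tag numbers were compared after scaling to the IgG depth. Intervals on tags are 95% exact Poisson intervals. Those on ratios are exact conditional binomial intervals. Both cover counting error only, and reads without molecular identifiers are not independent molecules.

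Scaled for depth, the summed summit tags of the 169 regions were 2.14 times as many in starvation as in control (2.08 to 2.21), from 14589 and 6468 tags. In the 32 regions the ratio was 0.919 (0.845 to 0.999), from 1105 and 1143 tags. Region by region, the interval of the starvation-to-control ratio lay above 1 in 160 of the 169 regions, beside 80.1% of all 201, and it held 1 in the other 9. For tunicamycin over control it lay above 1 in 161 of 168 resolved regions (95.8%) and below 1 in 0 (0%), again the background itself. Summed over the 168, the scaled ratio of tunicamycin to control tags was 2.61 (2.54 to 2.68). Among the 32 regions the starvation-to-control interval held 1 in 27, lay below 1 in 4 (1.99% of all 201 regions) and lay above 1 in 1. For those 27 regions a difference between the 2 libraries was not detectable at this depth. Longer fragments also raise the tags over a summit. The shortest peak of a list, taken here as its fragment length, was 149 bp for control, 193 bp for starvation and 212 bp for tunicamycin. Per unit of this length the summed starvation-to-control ratio was 1.66 (1.61 to 1.71) in the 169 regions and 0.710 (0.653 to 0.771) in the 32. Region by region its interval lay above 1 in 121 of 169 (60.2% of all 201) and below 1 in 11 of 32 (5.47% of all 201). For tunicamycin over control the summed ratio per unit of length was 1.83 (1.78 to 1.88) over the 168. The interval then lay above 1 in 150 of 168 (89.3%) and below 1 in 2 (1.19%), again the background itself.

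**Figure D3:**
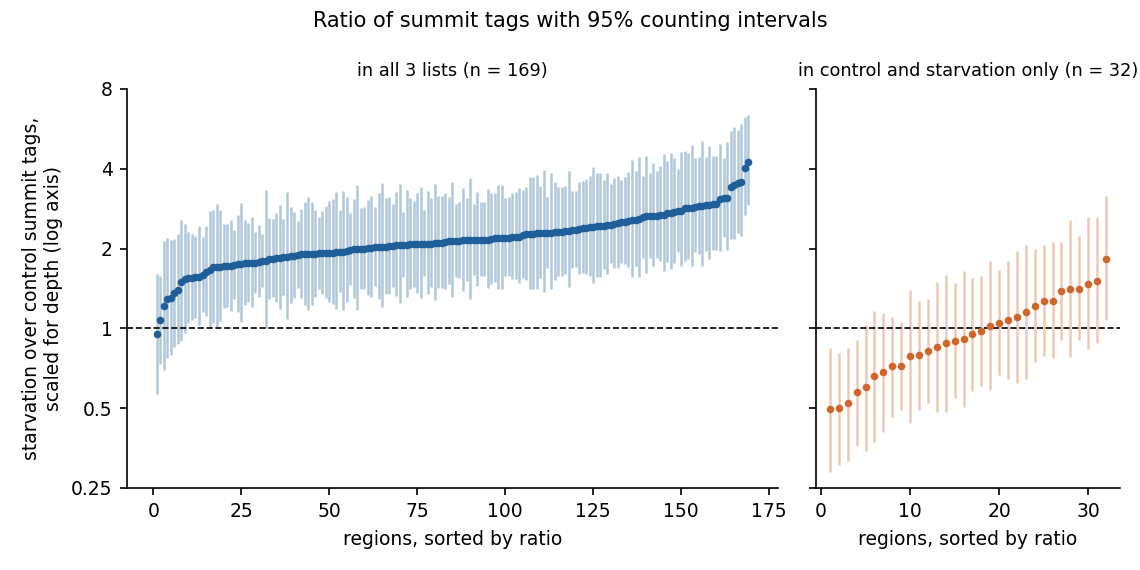
Ratio of starvation to control summit tags, scaled for depth, on a log axis, with 1 point per region sorted by ratio and its 95% counting interval as a line. The left panel holds the 169 regions in all 3 lists and the right panel the 32 in control and starvation only, and the dashed line marks a ratio of 1. In the left panel 160 intervals lie above the line, and in the right panel 27 of 32 cross it.

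The 10 regions of best mean rank over the 3 lists, a measure that only the 169 can have, all followed the order of control lowest. Nearly all of the 169 did so, as only 4 had a control fold above the fold of a stress. The region at chr19:4201414-4202064 held the first rank in control and tunicamycin and rank 3 in starvation. It had 92 control tags (74.2 to 113), 171 starvation tags (146 to 199) and 298 tunicamycin tags (265 to 334). Scaled for depth, the starvation-to-control ratio was 1.77 (1.36 to 2.30) and the tunicamycin-to-control ratio 2.32 (1.83 to 2.97). The region at chr8:97125513-97126064 had the highest control fold of the 201. Its 3 folds were 15.3, 20.2 and 25.2, and its summits were at 97125761, 97125761 and 97125760, so they differed by 1 bp at most. At chr7:52721905-52722522, the region with the highest tunicamycin fold of the 201, the folds were 13.4, 23.9 and 27.2, with 59, 134 and 231 tags. At chr11:51814103-51814647 they were 12.5, 22.1 and 26.1, with 63, 143 and 241 tags. The regions at chr6:54816643-54817212 and chr6:108135275-108135813 held ranks 2 and 4 in control, with control folds of 11.9 and 13.0, starvation folds of 17.4 and 19.2 and tunicamycin folds of 19.7 and 23.0. Among the 10, starvation had the higher fold of the 2 stresses at chr2:164658966-164659547 (25.8 against 23.9), at chr2:101726143-101726705 (24.7 against 23.5) and at chr3:89006565-89007109 (23.9 against 23.6). In these 3 the interval of the tunicamycin-to-starvation tag ratio held 1.

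The 5 regions of all 3 lists with the highest ratio of starvation to control fold were led by a pair highest in starvation. The region at chr11:69804354-69805035 had folds of 5.60 in control, 18.8 in starvation and 9.98 in tunicamycin. Its tags were 34 (23.5 to 47.5), 152 (129 to 178) and 110 (90.4 to 133), and the scaled starvation-to-control ratio was 4.25 (2.91 to 6.36). It ranked 197 in control, 9 in starvation and 236 in tunicamycin. The region at chr17:33961124-33961679 showed the same order, with folds of 7.05, 23.0 and 14.8 and a scaled starvation-to-control ratio of 4.03 (2.67 to 6.27). Both were thus highest in the starvation library, with intervals of the tunicamycin-to-starvation ratio below 1, at 0.546 (0.423 to 0.702) and 0.687 (0.527 to 0.894). The remaining 3 of the 5 highest ratios of starvation to control fold were at chr1:145587156-145587586, chr5:31456242-31456766 and chr3:67386472-67386975. Their folds were 5.71, 3.71 and 5.43 in control, and 16.3, 10.5 and 15.1 in starvation. In tunicamycin they were 16.2, 11.8 and 14.7.

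Between the 2 stresses the 169 regions differed less than either stress differed from control. The fold was higher in tunicamycin in 126 of 169 (74.6%), beside 68.2% of the 1291 regions called in both stress lists. The interval of the scaled tag ratio lay above 1 in 61 of 168 regions, beside 26.9% of all 1275 resolved, below 1 in 7 (2.35% of all) and held 1 in 100. Per unit of fragment length it lay above 1 in 25 of 168 (14.9%), beside 14.7% of all 1275, below 1 in 8 (4.31% of all) and held 1 in 135. The 169 regions thus stood above the background share only without this scaling. The ratio of tunicamycin to starvation fold ran from 0.483 to 1.92, and no region reached 2.

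The region with the highest ratio of tunicamycin to starvation fold was at chr9:102528399-102528875, where the control, starvation and tunicamycin folds were 5.94, 11.1 and 21.2. It had 35 control tags (24.4 to 48.7), 88 starvation tags (70.6 to 108) and 180 tunicamycin tags (155 to 208), and it ranked 194, 97 and 23. Its scaled tunicamycin-to-starvation tag ratio was 1.54 (1.19 to 2.01). Its local background was 1.72 times the genome-wide value for starvation and 1.18 times for tunicamycin, so part of its fold difference lay in the denominator. Next came chr13:64839138-64839503, with folds of 5.45, 7.51 and 14.0, and chr14:84867768-84868168, with 6.62, 9.97 and 18.4. Their scaled tag ratios were 1.89 (1.34 to 2.71) and 2.00 (1.44 to 2.81). The region at chr8:121628857-121629270 had the highest ratio of tunicamycin to control fold, 3.68, with folds of 3.45, 7.0 and 12.7. The regions at chr3:107081641-107082162 and chr2:116948708-116949171 were also among the 5 highest in tunicamycin over control. The first had folds of 4.50, 9.65 and 15.3 and the second 5.29, 12.6 and 17.6. Their scaled tunicamycin-to-control tag ratios were 3.49 (2.48 to 5.04) and 3.45 (2.33 to 5.25), both well above 1. The single member on the X chromosome, chrX:131135545-131135914, was among the 5 highest in tunicamycin over starvation, with folds of 6.41, 7.93 and 14.1 and 26, 41 and 105 tags.

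In the other direction, the lowest ratio of tunicamycin to starvation fold was at chr11:69231009-69231385, with folds of 4.15, 9.68 and 4.68. Its tags numbered 24 for control (15.4 to 35.7), 61 for starvation (46.7 to 78.4) and 48 for tunicamycin (35.4 to 63.6). The starvation library was the only high one there, and the scaled tunicamycin-to-control ratio of 1.43 had an interval that held 1 (0.861 to 2.45). The region at chr11:50026492-50026973 was alike, with folds of 4.34, 10.1 and 5.31, and 27, 81 and 60 tags. At chr15:59205498-59206101 the folds were 7.83, 16.0 and 9.47. The interval of the scaled tag ratio between the stresses held 1 there (0.969, 0.749 to 1.26), with a local background 1.41 times the genome-wide value for starvation and 2.35 times for tunicamycin.

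Among the 169 regions, 4 had a control fold above the fold of a stress. The region at chr8:85394695-85395279 was the 1 with its highest fold in control, at 7.81, 6.25 and 4.48 in control, starvation and tunicamycin. It had 32 tags in each library (21.9 to 45.2), so the deeper tunicamycin library had fewer after scaling. Its tunicamycin-to-control ratio of 0.717 had an interval that held 1 (0.425 to 1.21). Per unit of fragment length the ratio was 0.504, with an interval below 1. Its summits spanned 255 bp, so the counts were not all taken at the same place. The region at chr3:58006650-58007055 had folds of 7.35, 7.87 and 4.14 and 55, 62 and 60 tags. The region at chr3:94910731-94911162 had folds of 9.52, 8.86 and 13.0, but 43, 70 and 137 tags. Its starvation-to-control tag ratio was 1.55 (1.04 to 2.32), above 1, while the fold ratio was 0.930. There the local background was 1.14 times the genome-wide value in the control list and 1.72 times in the starvation list. The fourth was on chromosome 18, with folds of 8.04, 9.04 and 6.32. Low fold ratios also came with a higher local background at chr19:6140996-6141583, where the folds were 8.25, 8.89 and 10.3 but the tags 38, 99 and 153. Its background was 1.18 times the genome-wide value for control, 2.58 for starvation and 2.35 for tunicamycin, and the starvation-to-control tag ratio was 2.48 (1.69 to 3.70). At chr2:179608117-179608465 the background was the genome-wide value in all 3 lists. There the folds of 6.88, 7.37 and 8.29 were close together, and the tags of 28, 38 and 61 gave a starvation-to-control ratio of 1.29 (0.771 to 2.18).

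The 10 regions of highest control score among the 32 were chosen on the control list, so their lower starvation folds are a description only and no sign of a change. Ratios of starvation to control fold were lower at stronger control peaks in both sets, with medians of 1.98, 1.76 and 1.63 in the 169 and of 0.965, 0.737 and 0.491 in the 32, for control folds under 6, from 6 to 8, and of 8 or more. The region at chr3:62941469-62942215 had a fold of 11.1 on 67 tags (51.9 to 85.1) in control and of 4.07 on 51 tags (38 to 67.1) in starvation. Its local background over the genome-wide value was 1.67 in the control list and 3.01 in the starvation list, and the scaled tag ratio of 0.724 had an interval that held 1 (0.493 to 1.06). The next 4 by control score were those whose tag interval lay below 1. The region at chr16:26211517-26211890 had a fold of 12.7 and 53 tags (39.7 to 69.3) in control, and 5.51 and 28 tags (18.6 to 40.5) in starvation. Its scaled ratio was 0.502 (0.306 to 0.809). At chr2:117424034-117424350 the tags were 53 and 32, with a ratio of 0.574 (0.358 to 0.907). At chr11:110742400-110743055 they were 51 and 28, with 0.522 (0.317 to 0.844). At chr14:17790320-17790744 they were 44 and 23, with 0.497 (0.286 to 0.841). The control and starvation summits lay 200 bp apart at this chromosome 11 region and 66 bp apart at this chromosome 14 region. In both, the 2 counts were thus not taken at the same place. Local background was close to the genome-wide value in both lists at all 4, from 1.00 to 1.08 times in control and from 1.00 to 1.08 times in starvation.

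The other 5 of the 10 highest control scores in this set were less uniform. The regions at chr4:81317918-81318207, chr10:121341171-121341485 and chr10:37142388-37142889 had folds of 7.09, 9.07 and 9.20 in control and of 4.29, 5.28 and 4.75 in starvation. The region at chr12:9985946-9986318 had 36 tags in both libraries. At chr11:86437869-86438334 the fold was 8.27 in control and 9.37 in starvation, with 40 (28.6 to 54.5) and 58 (44.0 to 75) tags. That region also had the highest starvation score of the set, at rank 250, followed by chr1:170528283-170528655 at rank 296, with folds of 7.92 and 8.95. At the weak end in control, chr9:87961926-87962299 had 21 and 31 tags, chr4:13715193-13715509 had 22 and 34, and chr2:60976917-60977353 had 24 and 38 in control and starvation. At chr13:60511200-60511732, the 1 region of the set with a tag interval above 1, there were 23 and 44 tags, a ratio of 1.82 (1.07 to 3.16). Its summits lay 361 bp apart, so the 2 counts there were not taken at the same place.

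No tunicamycin peak lay near the 32 regions of control and starvation only. The nearest was 63443 bp away, and none of the 32 had one within 10 kb. The 32 were chosen to have no overlapping tunicamycin peak. How often other places have one within 10 kb was not counted, so this distance is a description only. In the tunicamycin list the fewest tags of a called peak at the genome-wide background were 26, a fold of 3.69. How many tunicamycin tags lay at these positions is not known, since the lists hold called peaks only.

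The 2 sets lay at similar places in the ranked control list and at different places in the starvation list. In the top 25% of the control list by score were 70 of the 169 regions and 12 of the 32, beside 25.6% of the list, where ties at the cut are included. For the starvation list these numbers were 159 of 169 and 2 of 32, beside 25.2%. For tunicamycin they were 158 of 169, beside 25.0%. The first 50 places held 38 of the regions of all 3 lists in control, 49 in starvation and 50 in tunicamycin. From rank 201 to 422 the regions of all 3 lists made up 26.0% of control peaks (20.3 to 32.4), 10.1% of the starvation list (6.53 to 14.8) and 9.68% of the tunicamycin list (6.09 to 14.4). The 32 regions had a median rank of 165 among the 422 control peaks and 1343 among the 1712 starvation peaks, where 23 of them stood beyond rank 1000. The 388 starvation-only regions had a similar median starvation rank, 1282. The 169 had median ranks of 127, 93 and 90 in control, starvation and tunicamycin.

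**Figure D4:**
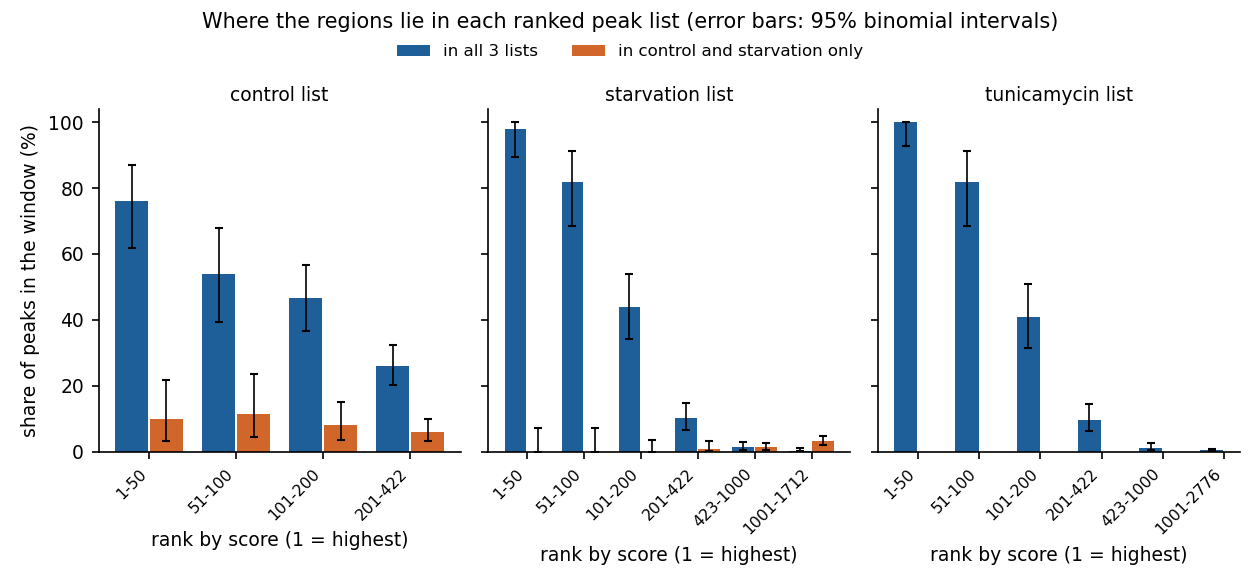
Share of the peaks in each window of rank by score that lay in the regions, with 1 panel per list, blue bars for regions in all 3 lists, orange bars for regions in control and starvation only, and 95% binomial intervals. In the tunicamycin list the orange set has no peak by definition and is not drawn. The blue bars go from 98% in the first window of the starvation list to 0.281% in the last, and the orange bars there reach 3.23%.

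Summits of different lists lay close together in the 169 regions. The median distance was 17 bp between control and starvation (95% interval 11 to 20), 15 bp between control and tunicamycin (12 to 17) and 11 bp between the stresses (9 to 14). All 3 summits fell within 50 bp of each other in 139 of 169 regions (82.2%, 75.6 to 87.7). In the 32 regions the median distance between control and starvation was 40.5 bp (16 to 88), and 17 of 32 were within 50 bp (53.1%, 34.7 to 70.9), against 151 of 169 (89.3%, 83.7 to 93.6). The 32 had weaker starvation peaks. With a starvation fold under 7 the median distance was 29 bp in 27 of them and 19 bp in 6 of the 169. With a starvation fold from 7 to 10 it was 90 bp in 5 of the 32 and 17 bp in 39 of the 169. The greatest spread of summits in the 169 was at chr8:85394695-85395279, described above for its highest fold in control, where they spanned 255 bp. It was followed by chr1:183681514-183682292 with 247 bp, where 21 control tags stood against 63 and 98 in the stresses. At chr15:78861113-78861604 the control summit lay 176 bp from that of starvation and 172 bp from that of tunicamycin, while the stress summits were 4 bp apart. At chr15:80085525-80086068 the summits were at 80085755, 80085789 and 80085858, in the order control, starvation, tunicamycin. This region had the highest score of the starvation list and its folds were 9.45, 23.7 and 20.7.

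**Figure D5:**
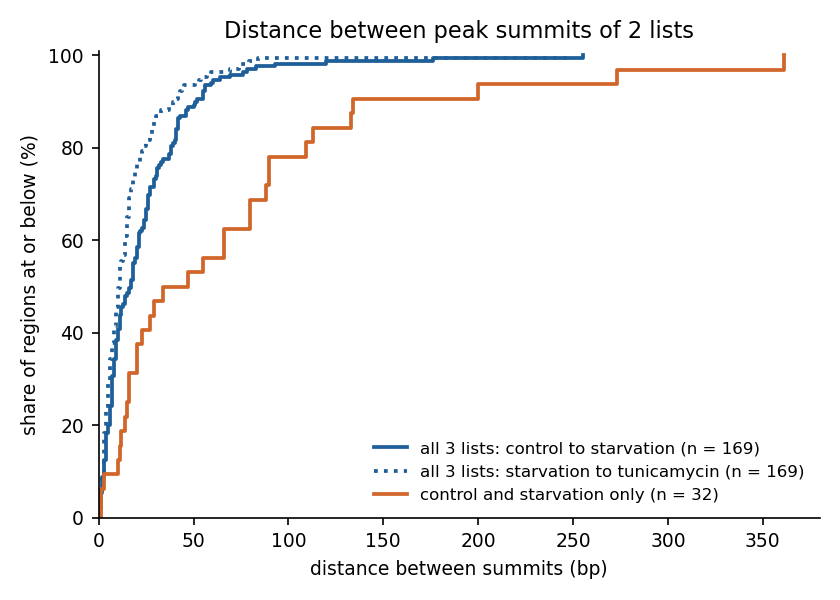
Cumulative share of regions (%) by the distance between the summits of 2 lists in bp, for the 169 regions in all 3 lists (solid blue, control to starvation, and dotted blue, starvation to tunicamycin) and for the 32 in control and starvation only (orange). At 50 bp the solid blue line stands at 89.3% and the orange line at 53.1%.

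Stress peaks were wider than control peaks in the 169 regions, and the 32 did not show this. Median widths in the 169 were 209 bp for control, 394 bp for starvation and 457 bp for tunicamycin, and the starvation peak was wider than the control peak in 167. The shortest peak of a list also differed, at 149 bp for control, 193 bp for starvation and 212 bp for tunicamycin. The part of this, of depth and of peak strength in the widths was not tested. The control peak lay wholly inside the starvation peak in 161 of 169 (95.3%, 90.9 to 97.9) and inside the tunicamycin peak in 167. In the 32 regions the control peak was a median of 282 bp wide and the starvation peak 271.5 bp, with the starvation peak wider in 14. The control peak lay inside the starvation peak in 5 of 32 (15.6%, 5.28 to 32.8). Control-only peaks had a median width of 215 bp, so the control peaks of the 32 regions were the widest of the 3 control sets by median (95% interval 247 to 330 bp, against 196 to 223 bp in all 3 lists and 205 to 225 bp in control only). Only chr17:46782837-46783733 held 2 peaks of a list, 2 control peaks under 1 starvation peak of 830 bp and 1 tunicamycin peak of 897 bp.

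The local IgG background exceeded its genome-wide value at many regions, and in the control list about as often in these as in all. The local background of the control list exceeded its genome-wide value in 121 of the 169 regions (71.6%, 64.2 to 78.3), in 24 of the 32 (75%, 56.6 to 88.5) and in 174 of the 220 control-only regions (79.1%, 73.1 to 84.3), beside 75.8% of all 421 regions with a control peak. In the starvation list it did so in 114 of the 169 (67.5%, 59.8 to 74.5) and 26 of the 32 (81.3%, 63.6 to 92.8), beside 947 of 1703 regions with a starvation peak (55.6%, 53.2 to 58.0), 572 of 1114 of both stresses without control (51.3%, 48.4 to 54.3) and 235 of 388 of starvation only (60.6%, 55.5 to 65.5). The raised background lowers a fold, and its part in which regions were called was not tested. The median excess was small, at 1.16 and 1.11 times the genome-wide value in the control list for the 169 and the 32. An exception was chr8:19725512-19725987, where the local background was 10.6, 11 and 11 times the genome-wide value in control, starvation and tunicamycin. It had the most tags of the 201 regions, at 118, 223 and 306, with folds of 3.87, 5.25 and 4.95.

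The 201 regions were spread over all 19 autosomes and X. Chromosome 11 held 17 of the 169 regions (10.1%, 5.97 to 15.6) and 3 of the 220 control-only regions (1.36%, 0.282 to 3.93), beside 6.65% of all 3415. Chromosome 5 held 16 of the 169 (9.47%, 5.51 to 14.9), beside 7.70% of all 3415, and chromosome 2 held 5 of the 32 (15.6%, 5.28 to 32.8), beside 7.26%. The intervals of the 169 on chromosomes 11 and 5 and of the 32 on chromosome 2 held the share over all regions. That of the control-only regions lay below it on chromosome 11, and also on chromosome 8 (2.73%, 1.01 to 5.84, beside 6.12%). It lay above the share over all regions on chromosomes 15 (11.8%, 7.87 to 16.8, beside 6.68%), 3 (10.9%, 7.12 to 15.8, beside 6.94%) and 13 (8.64%, 5.28 to 13.2, beside 5.07%). No allowance was made for looking over all chromosomes. Only 2 pairs of the 201 regions lay within 10 kb of each other. At chr19:3323795-3324360 and chr19:3325338-3325809 the gap was 977 bp, and the folds were 7.55, 13.6 and 17.0 at the first and 6.82, 10.9 and 12.2 at the second. At chr14:51544038-51544886 and chr14:51550433-51551053 the gap was 5546 bp. The folds were 3.77, 8.97 and 13.4 at the first, and 5.0, 11.6 and 10.5 at the second. The scaled tunicamycin-to-starvation tag ratios were 1.28 (0.996 to 1.66) and 0.964 (0.681 to 1.37). Both intervals held 1, so the order of the stresses was not resolved at either.

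The rule turns on an overlap of 1 bp, and few regions lay near that edge. The smallest overlap of a control peak with a stress peak was 36 bp, at chr13:60511200-60511732 (control fold 5.71), followed by 77, 79, 113 and 148 bp. Just outside, a control peak on chromosome 18 with a fold of 6.41 lay 91 bp from a starvation peak. The control peak at chr16:26210976-26211150 with a fold of 5.32 lay 370 bp from the starvation peak of the region at chr16:26211517-26211890. The next 3 control peaks were 635, 980 and 1286 bp from a stress peak. Of the 220 control-only regions, 2 had a stress peak within 500 bp and 10 within 10 kb.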

How the data were processed

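ChIP-seq peak lists of 3 TFE3 libraries from mouse embryonic fibroblasts were used. The IgG library entered as their background. The submitters' processing notes list Bowtie and MACS2 without a version, and mm9 as the build. Each peak has 10 fields, and the peak names, which join 1 TFE3 library to the IgG control, show calling library by library rather than on pooled samples. The authors deposited a score, a fold enrichment as a linear ratio, and −log10 p and −log10 q values for each peak. In every peak the score was 10 times the −log10 q, cut to a whole number. Coordinates are 1-based mm9 positions. An mm9 sequence and annotation were not used here, so the planned motif and gene descriptions were not made.

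Regions were merged at an overlap of 1 bp. Where a list had several peaks in a region, the strongest was used. Ranks follow −log10 q. Tag numbers were recovered from fold and −log10 p under MACS2's formulas (pseudocount 1), which no label records. A single whole number met p within 0.004 for 100% of control, 99.5% of starvation and 99.5% of tunicamycin peaks. The recovery and the merging were tested on simulated data. The simulation used the same formulas, so it could not test them, and it did not reach the highest tag numbers seen here. Shares carry 95% exact Clopper-Pearson intervals. The members and lists were chosen with earlier results of these data known. Named regions were those of best mean rank, with the highest and lowest fold ratios, with the most distant summits, with the highest and lowest scores of the control-and-starvation set, with several peaks of a list, at the edge of the rule, in pairs within 10 kb or on X. The region of highest local background was chosen after its values were seen. Tables were handled in pandas 2.3.3 and numpy 2.4.6 under Python 3.11.15, intervals came from scipy 1.17.1, and plots from matplotlib 3.10.9.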

Additional observations from a re-analysis of the deposited data

How the results depend on the processing

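Of 105 repeats of the 15 main values under 7 other settings, 81 stayed, 22 moved and 2 reversed. A common lowest −log10 p for all lists left 201 regions, autosomes only left 200, and joining peaks within 500 bp gave 202. These settings hardly changed the members, so every value stayed under them, which says little about stability. Counts were taken as stable up to a 1.5-fold change, and medians while they lay inside the 95% interval of the reported median. With a score minimum of 68, the control median, 125 regions remained, 11 of them in control and starvation only. The 114 regions of all 3 lists then had a median control fold of 7.60, a starvation fold of 13.5 and a tunicamycin fold of 15.5. In the control-and-starvation set the starvation median was 6.25 and the median summit distance 90 bp. With lists of equal length, 12 regions were in control and starvation only, with a starvation median of 9.76 and a ratio of starvation to control fold of 1.60, which reversed the direction, and 6 were in control and tunicamycin only. Only 2 of those 12 belonged to the set of 32, and 10 were regions of all 3 lists whose tunicamycin peak fell below the cut. With peaks at the genome-wide background only, 49 regions remained, 40 in all 3 lists, 8 in control and starvation only and 1 in control and tunicamycin only. In those 8 the starvation median was 9.51 and the ratio 1.395, also reversed, and 4 belonged to the set of 32. In the 40 the medians were 7.57, 13.0 and 14.8, the starvation-to-control ratio 1.68 and the summit distance 20.5 bp. With a 50% reciprocal overlap 1 region was in control and tunicamycin only, and the tunicamycin median in all 3 lists was 14.8. No paired analysis was possible because each group had 1 library, and for the same reason no library could be left out. At control medians of 34 tags in the 32 regions and 35 in the 169, the interval of the starvation-to-control ratio held 1 in 27 of 32 and 9 of 169.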
